A study of Mus musculus with 23 samples.

Results

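The H3K27me3 peaks of Ebf2-EGFP+ cortical cells at E13.5 were compared with those of Ebf2-EGFP+ cells at E15.5. The members were all peaks of both lists on the nuclear chromosomes, 6721 at E13.5 and 1429 at E15.5, together 8150 of the 230624 regions in the 8 peak lists of the series. A peak was called shared when it had at least 1 bp in common with a peak of the other list. A transcription start site (TSS) with a peak no more than 5 kb away was taken as marked, and each of 21938 protein-coding TSS was kept (marked at both stages), lost (E13.5 only), gained (E15.5 only) or unmarked. Each stage has 1 list, which leaves replicate error unknown and allows no test between stages. Ranges in brackets are 95% Wilson intervals, which cover counting error only and take peaks and TSS as independent.

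Both groups came from the cerebral cortex of embryos of the strain Tg(Ebf2-EGFP)FB58Gsat, in which regulatory sequence of Ebf2 drives EGFP, and both were sorted by flow cytometry for EGFP. EGFP first labels neurons of the preplate and later persists in Cajal-Retzius neurons, the Reelin-secreting cells of the marginal zone, so the makeup of the sorted cells and their stage cannot be told apart. Each group had 2 H3K27me3 libraries and 2 input libraries, from sorted cells with no further treatment, and how many embryos gave them is not stated. At E13.5 EGFP is fading in subplate neurons, so these cells are a mixture that already holds Cajal-Retzius neurons, and at E15.5 they are mostly the latter. The question was how the repressive mark at genes differs between these stages.

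H3K27me3, trimethylation of lysine 27 of histone H3, is written by Polycomb repressive complex 2 (PRC2). It is known for covering CpG islands of developmental regulators that a cell type does not use, among them the Hox genes, whose clusters stay silent in forebrain, and the homeobox, forkhead and bHLH factors of other lineages. H3K27ac, on the same residue, marks active promoters and enhancers, and a pool of cells can show both marks at a gene.

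The sequences of 6 peaks at kept, lost and gained TSS are given as examples. These 6 were chosen by the width of the peak or overlap, not as typical of their classes. The sequences were read from the plus strand of GRCm38 (mm10), and CpG dinucleotides, which CpG islands are rich in, are in capitals. The first 3 were occupied at both stages within 5 kb of a kept TSS, and are the stretch common to both peaks or its middle 300 bp. Aida (chr1:183299233-183299532) is intronic single-copy sequence with 6 CpG. Hoxa2 (chr6:52168685-52168940) lies in an exon of Gm28308 and Hoxaas2 upstream of Hoxa2, with 22 CpG and 69.1% GC. Tmem125 (chr4:118548464-118548716) is an intergenic tandem repeat.
Aida: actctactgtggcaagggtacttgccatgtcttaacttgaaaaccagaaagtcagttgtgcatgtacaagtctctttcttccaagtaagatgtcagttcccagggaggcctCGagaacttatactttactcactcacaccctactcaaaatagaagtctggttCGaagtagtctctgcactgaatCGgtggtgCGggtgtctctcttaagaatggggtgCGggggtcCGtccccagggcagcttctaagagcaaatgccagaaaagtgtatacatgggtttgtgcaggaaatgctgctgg
Hoxa2: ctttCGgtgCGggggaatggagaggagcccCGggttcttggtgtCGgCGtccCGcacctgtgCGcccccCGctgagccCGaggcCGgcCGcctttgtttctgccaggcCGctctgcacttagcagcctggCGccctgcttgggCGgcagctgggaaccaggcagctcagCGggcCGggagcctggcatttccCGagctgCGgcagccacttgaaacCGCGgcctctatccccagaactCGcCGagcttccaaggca
Tmem125: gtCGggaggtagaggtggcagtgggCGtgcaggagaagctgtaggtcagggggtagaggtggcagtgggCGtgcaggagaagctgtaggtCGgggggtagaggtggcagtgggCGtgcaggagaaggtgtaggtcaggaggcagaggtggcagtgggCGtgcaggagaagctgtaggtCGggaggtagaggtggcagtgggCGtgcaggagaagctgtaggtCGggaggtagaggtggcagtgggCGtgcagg
Spint1 (chr2:119237836-119238135) is a stretch of an E13.5 peak at a lost TSS, outside annotated untranslated regions, with 27 CpG.
Spint1: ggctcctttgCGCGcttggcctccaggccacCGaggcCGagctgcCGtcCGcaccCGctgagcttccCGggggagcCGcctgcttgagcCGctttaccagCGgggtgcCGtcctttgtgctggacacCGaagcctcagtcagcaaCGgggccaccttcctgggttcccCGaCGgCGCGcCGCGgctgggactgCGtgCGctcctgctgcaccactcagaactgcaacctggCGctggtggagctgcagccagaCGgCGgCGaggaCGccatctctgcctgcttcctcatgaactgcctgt
Hoxa5 (chr6:52202961-52203260) and Hoxa6 (chr6:52205384-52205683) are stretches of E15.5 peaks at gained TSS, and each holds 12 CpG.
Hoxa5: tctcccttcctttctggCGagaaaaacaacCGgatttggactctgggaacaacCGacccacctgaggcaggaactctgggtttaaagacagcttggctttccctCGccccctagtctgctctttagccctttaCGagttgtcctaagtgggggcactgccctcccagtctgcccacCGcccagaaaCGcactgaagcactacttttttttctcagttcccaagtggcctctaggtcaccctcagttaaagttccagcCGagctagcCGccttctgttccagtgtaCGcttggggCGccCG
Hoxa6: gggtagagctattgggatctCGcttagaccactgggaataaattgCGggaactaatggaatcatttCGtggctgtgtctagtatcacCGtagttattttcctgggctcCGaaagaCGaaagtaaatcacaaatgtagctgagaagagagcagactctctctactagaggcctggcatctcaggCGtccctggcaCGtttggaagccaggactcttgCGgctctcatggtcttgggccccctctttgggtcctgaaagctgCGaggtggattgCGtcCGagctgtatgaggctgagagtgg

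Few H3K27me3 peaks were present at both stages. Of the 6721 E13.5 peaks 119 met an E15.5 peak, or 1.77% [1.48 to 2.11]. Of the 1429 E15.5 peaks 115 met an E13.5 peak, or 8.05% [6.75 to 9.57]. The E15.5 list was the shorter of the pair by far, covering 255 kb against 1111 kb, and could therefore meet only part of the E13.5 list. From E11.5 to E13.5, where the lists were of like length (6387 and 6721 peaks), 170 E13.5 peaks or 2.53% [2.18 to 2.93] met an E11.5 peak of Ebf2-EGFP+ cells.

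Most of the shared peaks lay in repeated sequence. A peak was called multi-copy when the median of its 31-base words occurred 2 or more times in the assembly. By this measure 89 of the 115 shared E15.5 peaks were multi-copy, or 77.4%, against 113 of the 1314 E15.5-only peaks, or 8.60%. Among multi-copy E15.5 peaks 44.1% [37.4 to 51.0] met an E13.5 peak, and among single-copy E15.5 peaks 26 of 1227, or 2.12% [1.45 to 3.09]. From E11.5 to E13.5 the share of multi-copy E13.5 peaks with an earlier partner was 9.16%, and of single-copy ones 1.76% [1.46 to 2.12].

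**Figure D1:**
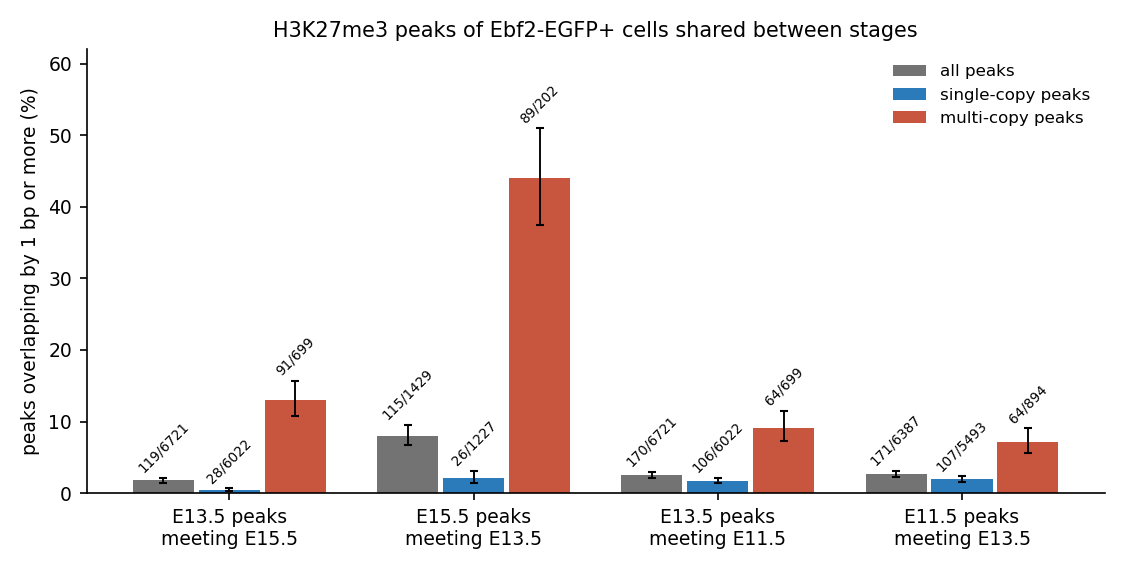
Share of H3K27me3 peaks of Ebf2-EGFP+ cells that overlap a peak of another stage by 1 bp or more (y axis, percent), for all, single-copy and multi-copy peaks; bars start at 0, error bars are 95% Wilson intervals and labels give overlapping over total peaks. The bar of multi-copy E15.5 peaks stands at 44.1% and that of single-copy E15.5 peaks at 2.12%.

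Many of the shared peaks gathered at a few places, some of which are described here. The assembled start of chromosome 9 (3000257 to 3038205) held 43 of the 115, or 37.4%, with 31-base words found a median of 37 times. All 45 E13.5 peaks there were shared, and 14 of the 57 E15.5 peaks there were not. On chromosome 17 (39843022 to 39848801), over Gm26917 and Gm42418, all 7 E13.5 and all 5 E15.5 peaks met a partner. The words of this stretch had a median of 1 copy in the assembly, and it held the widest shared peaks, of 1233 bp at E13.5 and 1452 bp at E15.5. On chromosome 2 (98662238 to 98667326), at Gm10800 and Gm10801, the number was 3 at each stage. The HoxA block described further on held 4, and single-copy sequence away from the repeats and blocks 19 of 1088 E15.5 peaks.

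The shared places also carried H3K27ac. Of the shared E15.5 peaks 89.6% [82.6 to 93.9] overlapped an H3K27ac peak of E15.5, and 83.5% [75.6 to 89.2] an H3K27me3 peak of E11.5 Ebf2-EGFP- cells, which are mostly progenitors. For the E15.5-only peaks the shares were 18.8% [16.8 to 21.0] and 9.06% [7.62 to 10.7]. Outside the HoxA block they were 89.2% and 83.8% for shared peaks and 9.50% and 7.46% for E15.5-only peaks. The 26 single-copy shared peaks had lower shares, 57.7% [38.9 to 74.5] and 53.8% [35.5 to 71.2], than all shared peaks, against 18.8% and 8.58% of single-copy E15.5-only peaks. The 26 included peaks of the chromosome 17 stretch over Gm26917 and Gm42418, which overlapped peaks of both lists. Copies were counted in the assembly only. The part of reads that match several places in the shared peaks was not tested.

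The 19 single-copy shared peaks away from these places included several near genes. At Aida and Brox, divergent genes for an axin interactor and a BRO1-domain protein, a 350 bp E13.5 peak lay inside a 387 bp E15.5 peak in an intron of Aida. At H2afz and Dnajb14, the genes of histone H2A.Z and a DnaJ co-chaperone, a 130 bp E13.5 peak lay inside a 290 bp E15.5 peak. Gata6, a factor of endoderm and heart, had an exonic peak of 371 bp at E13.5 that contained one of 153 bp at E15.5. Rapgef4, which encodes a cAMP-activated exchange factor for Rap, had 145 bp and 118 bp peaks that shared 98 bp at its TSS. In Col13a1, a transmembrane collagen gene, the common stretch was 79 bp.

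Peaks of the classes differed in width and sequence as follows. The median width was 186 bp for shared E13.5 peaks and 146 bp for E13.5-only peaks, and 216 bp and 134 bp for the same classes at E15.5. The narrowest peaks, 116 bp at E13.5 and 118 bp at E15.5, made up 17.7% and 31.5% of the lists. At the other end, 27 E13.5 peaks and 46 E15.5 peaks reached 500 bp. The median GC content was 58.5% for E13.5-only and 52.1% for E15.5-only peaks. The ratio of observed to expected CpG, for which 1 means no depletion, had a median of 0.33 in E13.5-only, 0.20 in E15.5-only and 0.76 in shared E15.5 peaks. The E15.5-only peaks had the lowest median of the 3 classes. Shared E15.5 peaks had a median GC content of 48.2%, and 77.4% of them were multi-copy. Among single-copy E15.5 peaks the median ratio was 0.55 for the 26 shared and 0.20 for E15.5-only peaks. Outside the HoxA block it was 0.42 for the 23 single-copy shared peaks. The median widths of single-copy E15.5 peaks were 177 bp for shared and 135 bp for E15.5-only ones.

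The classes also differed in position. Within 1 kb of a protein-coding TSS lay the centres of 16.7% of E13.5-only and 6.62% of E15.5-only peaks. Exons held 20.9% and 13.9%, introns 36.5% and 42.4%, and intergenic sequence 26.0% and 37.1%. The median distance to the nearest protein-coding TSS was 15.9 kb for E13.5-only and 28.9 kb for E15.5-only peaks. Outside the HoxA block the E15.5-only peaks lay a median of 83.2 kb from the nearest E13.5 peak, and 38.2% of them had one within 50 kb. Only 36 of these 1179 came within 1 kb of an E13.5 peak without touching it.

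The widest peaks of each class lay at different genes. The 3 widest E13.5-only peaks were 908 bp on chromosome 1 (171072628 to 171073535, intergenic, 3 copies), 753 bp at the promoter of H2-Q1 and 607 bp at that of Spint1. The widest E15.5-only peak was 1754 bp in an exon of Zeb1 on chromosome 18 (5766260 to 5768013), and the HoxA block held one of 1192 bp. The E15.5 list held 14.1% of its peaks on chromosome 6, which makes up 5.49% of the assembled nuclear genome, and 8.96% on chromosome 9. At E13.5 these chromosomes held 4.70% and 5.79%.

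At TSS the mark was mostly lost. At E13.5 2043 TSS were marked, 9.31% of all, and at E15.5 232, or 1.06%. Of the 2043, 55 were kept, or 2.69% [2.07 to 3.49], and 1988 were lost. The 55 were 0.251% and the 1988 were 9.06% of all TSS. Of the 232 TSS marked at E15.5, 23.7% [18.7 to 29.6] had been marked at E13.5, against 9.31% of all TSS, and 177 were gained, 0.807% of all TSS. Because the E15.5 list held 1429 peaks against 6721, a lost TSS is one with no peak in the shorter list. Whether its H3K27me3 level was lower cannot be told from peak lists without scores.

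Kept TSS rested on the same site in 28 of 55 cases. In the other 27 the E13.5 and E15.5 peaks within 5 kb did not overlap. A multi-copy peak lay at 18 of the 55 kept, 69 of the 1988 lost and 12 of the 177 gained TSS. The 9 kept TSS at the start of chromosome 9 were among 15 kept TSS of genes with Gm or Rik names only. Duxf3 and Tcstv3, relatives of genes active in the 2-cell embryo, were kept through sequence found 2 and 1864 times. Tmem125, a predicted membrane protein gene, kept 3 sites in a tandem repeat upstream of its TSS, with 4 peaks at the earlier stage and 3 at the later. Sfi1, for a centrin-binding protein, was kept through a 149 bp E13.5 peak inside a wider E15.5 peak, centred 329 bp downstream of its TSS.

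Among kept TSS whose peaks did not overlap were genes of several roles. Trp73, which encodes the p53 relative p73 that Cajal-Retzius neurons depend on, had a 116 bp peak at E13.5, centred at -2163 bp from the TSS, and a 228 bp peak at E15.5, centred at 4616 bp. A wider E13.5-only peak, of 601 bp, lay in an intron of Trp73 with no protein-coding TSS within 5 kb. Fgf3, a secreted growth factor gene, had 219 bp and 156 bp peaks. Kcna7, a voltage-gated potassium channel gene, had 2 peaks and then 1. Ski, a co-repressor of Smad signalling, had 116 bp and 131 bp peaks, and Insrr, the insulin receptor-related receptor, 166 bp and 118 bp. Rapgef1, a guanine nucleotide exchange factor gene, had 116 bp and 132 bp peaks on either side of its TSS.

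Lost TSS included genes with wide E13.5 peaks. At the 20 lost genes with the widest E13.5 peaks, these ran from 440 bp at Sox18, an endothelial factor, to 753 bp at H2-Q1, a class I histocompatibility gene. Spint1, an inhibitor of serine proteases of epithelia, had 607 bp, and Notum, a secreted Wnt deacylase, 599 bp. Foxf1 and Cdx1, factors of lateral mesoderm and of gut, had peaks of 451 bp and 503 bp. Adcy2, an adenylyl cyclase gene, had 596 bp and Nfix, a nuclear factor I gene of neural progenitors and neurons, 469 bp. At E15.5 none of the 20 had a peak within 5 kb. H3K27ac peaks were present at E15.5 at 14 of these 20, against 65.8% of all lost TSS, among them Nfix with a widest peak of 2089 bp, Ralgps2 with 1409 bp and Adcy2 with 664 bp. The 6 without one were Spint1, Notum, Fam83g, Rnf213, Cdx1 and Sox18.

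Developmental transcription factors were marked more often than all TSS at E13.5, and few of them were marked at E15.5. In the 11 lists of Hox, homeobox, forkhead, Sox, T-box, Gata, bHLH, Ebf, Zic and Gli factors together, 118 of 297 genes were marked at E13.5, or 39.7%, against 9.31% of all TSS. At E15.5 it was 11, or 3.70%, against 1.06%. Of the 118, 4 were kept and 114 lost, and 7 were gained. Without the HoxA genes the numbers were 111 of 286 at E13.5 (38.8%) and 5 at E15.5 (1.75%). The E15.5 share was then nearer to the 1.06% of all TSS. Of the 114 lost, 91, or 79.8%, had H3K27me3 in E11.5 progenitors, against 74.1% of all lost TSS. An H3K27ac peak at E15.5 lay at 52 of them, or 45.6%, against 65.8% of all lost TSS and 52.3% of all TSS.

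Homeobox families other than Hox had almost no E15.5 peak, as did TSS at large. Of all TSS 9.31% were marked at E13.5 and 1.06% at E15.5, and 97.3% of those marked at E13.5 were lost. Factors of the Pax, Eya and sine oculis homeobox families, which pattern eye, ear, kidney and neural tube, were marked in 11 of 19 at E13.5 and 0 of 19 at E15.5. Examples at E13.5 were Six3 with a 229 bp peak, Pax1 with 215 bp and Pax5 with 214 bp. Of the 45 Nkx, Dlx, Irx and related factors, 23 were marked and then lost, with Irx2 (4 peaks, widest 367 bp), Gbx1 (303 bp) and Irx1 (288 bp) the widest, and Nkx2-6 was gained with a 123 bp peak. The other homeobox factors went from 16 of 42 to 0, among them Cdx1 (503 bp) and Hmx2 (247 bp). LIM homeodomain factors went from 2 of 12, Lhx3 and Lmx1b, to 0.

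Other factor families were similar, and so was the loss over all TSS, at 97.3% of those marked at E13.5. The marked shares of all TSS were 9.31% at E13.5 and 1.06% at E15.5. Forkhead factors were marked in 15 of 44 at E13.5, all lost, with Foxf1 (3 peaks), Foxa1 (364 bp) and Foxc1 (341 bp) as examples. T-box and Gata factors were marked in 7 of 21, of which Gata6 was kept and 6, including Tbx2 (368 bp), were lost. Sox factors went from 6 of 19 to 0, mesodermal and other non-neural bHLH factors from 6 of 22 to 0, including Hand2 (320 bp), and Ebf, Zic and Gli factors from 4 of 12 to 0. Among 23 proneural and neuronal bHLH genes, Neurod1 (219 bp), Neurod6 (137 bp), Olig1, Olig2 and Olig3 were lost. Neurog2, a proneural factor of cortical progenitors, was gained with a 173 bp peak centred at -4452 bp from its TSS.

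**Figure D2:**
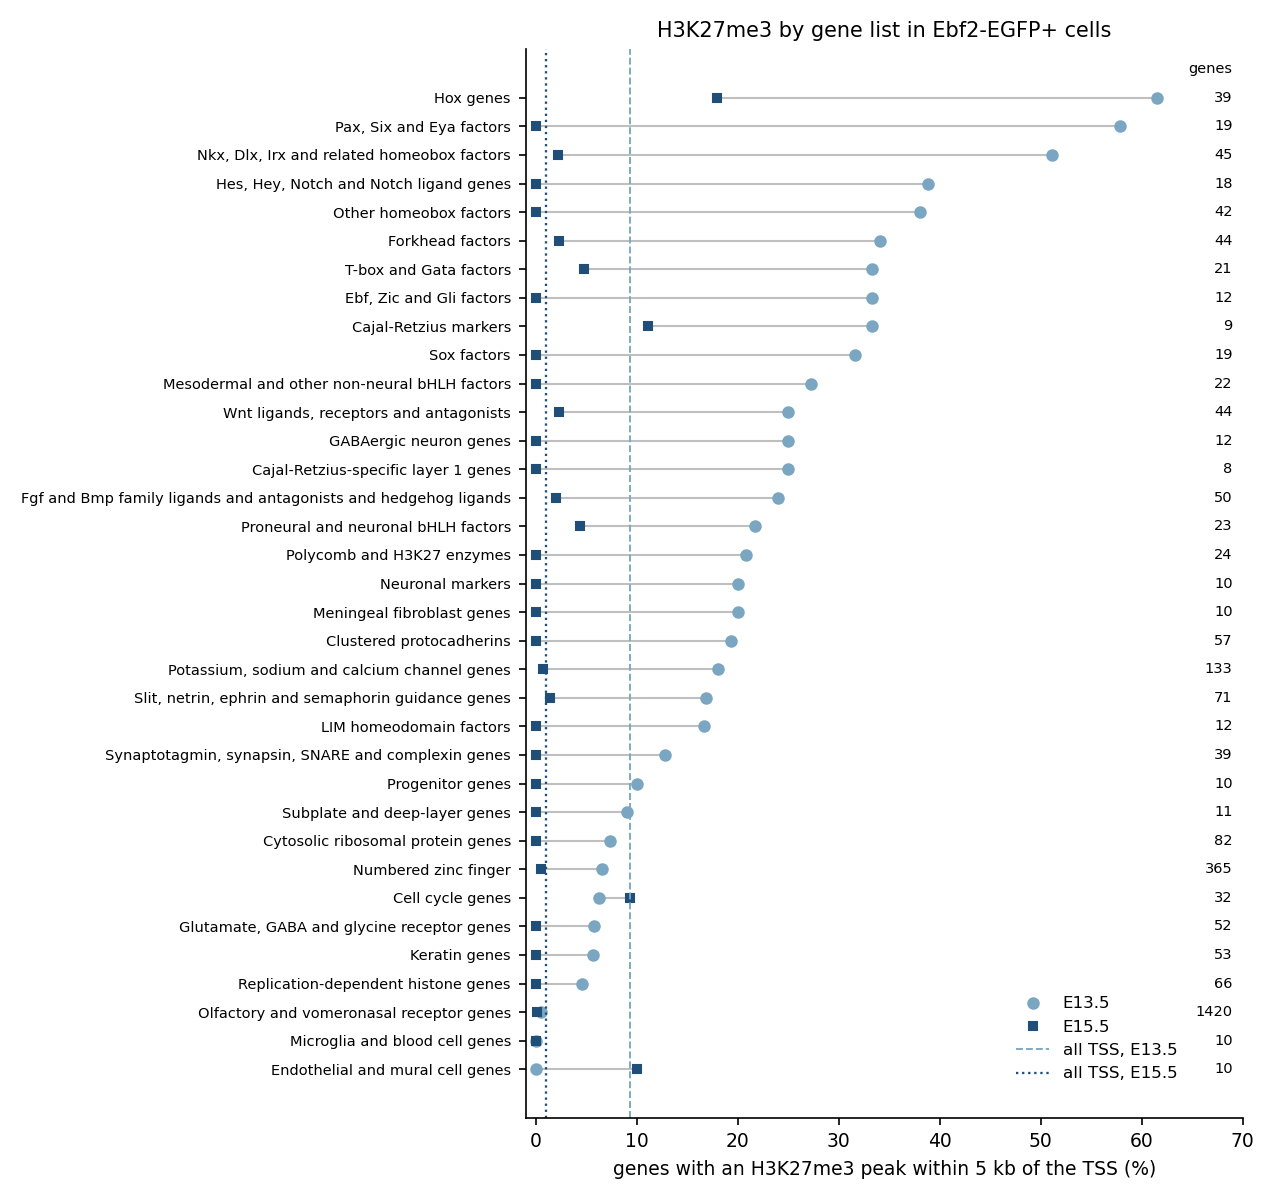
Share of the genes of each list (rows, with the number of genes at the right) that had an H3K27me3 peak within 5 kb of the TSS at E13.5 (circles) and E15.5 (squares), in percent; vertical lines are the shares of all protein-coding TSS, 9.31% and 1.06%. Hox genes stood highest at both stages, at 61.5% and 17.9%.

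Signalling families had E13.5 shares of 16.9% for guidance genes to 38.9% for Notch genes, and at most 1 marked member each at E15.5. The shares of all TSS were 9.31% and 1.06%. Of 18 Hes, Hey, Notch and Notch ligand genes 7 were marked at E13.5, including Dll4 (184 bp), Notch3 and Jag2, and 0 at E15.5. Wnt pathway genes went from 11 of 44 to 1, with Wnt3a (382 bp), Wnt7b (351 bp) and Wnt10b (310 bp) lost and Dkk3, a secreted Dickkopf protein, gained with a 248 bp peak. Fgf, Bmp and hedgehog genes went from 12 of 50 to 1, with Nog (428 bp) and Dhh (328 bp) lost and Fgf3 kept. Of 71 guidance genes 12 were marked and lost, among them Ntn1 (231 bp), Unc5b (242 bp) and Slit1 (207 bp), and Nrp1 was gained, through peaks that lay on its exons.

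Genes of neuronal function lay on both sides of the background at E13.5, 9.31% of all TSS. At E15.5 the background was 1.06%. Potassium, sodium and calcium channel genes were marked in 24 of 133 at E13.5 and 1 at E15.5. Clustered protocadherins were marked in 11 of 57 (19.3%) and then 0, and neighbouring Pcdha genes shared peaks. Synaptotagmin, synapsin, SNARE and complexin genes went from 5 of 39 (12.8%) to 0 and glutamate, GABA and glycine receptor genes from 3 of 52 (5.77%) to 0. Ribosomal protein genes (6 of 82 at E13.5), replication-dependent histone genes (3 of 66), keratin genes (3 of 53) and numbered zinc finger genes (24 of 365) were all below 9.31%, as were olfactory and vomeronasal receptor genes (8 of 1420). The last list had 2 gained members, Olfr531 and Vmn1r175. Of the 37 lists only cell cycle genes and endothelial genes had more marked members at E15.5 than at E13.5. For the 32 cell cycle genes the number was 2 and then 3, Aurkb (144 bp), Ccne1 (220 bp) and Mcm3 (182 bp). Polycomb and H3K27 enzyme genes, which include the reader Cbx8 and the acetyltransferase Crebbp, went from 5 of 24 to 0.

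Most E15.5 peaks at Hox genes lay in the HoxA cluster, over a stretch that H3K27ac peaks covered as well. Hox genes were marked in 24 of 39 at E13.5 (61.5%) and 7 of 39 at E15.5 (17.9%), against 9.31% and 1.06% of all TSS. Hoxa2, Hoxa4 and Hoxb5 were kept, 21 were lost, and Hoxa3, Hoxa5 and Hoxa6 were among those gained. Hoxa7, Hoxa9, Hoxa10, Hoxa11 and Hoxa13, at the posterior end of the same cluster, had peaks at E13.5 and none at E15.5. From E13.5 to E15.5 the number of peaks went from 10 to 1 over HoxB, from 6 to 0 over HoxC and from 6 to 0 over HoxD.

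The E15.5 peaks at HoxA formed 1 dense block. On chromosome 6, from 52066736 to 52209530 (142.8 kb), lay 139 peaks with a median width of 278 bp and a median gap of 439 bp. They were 9.73% of the E15.5 peaks and 18.8% of all bases the list covered. The block began in intergenic sequence, ran over the long non-coding gene Halr1 and the TSS of Hoxa2, Hoxa4, Hoxa5 and Hoxa6, and ended before the TSS of Hoxa3. The nearest E15.5 peak outside it was 1285 kb away on one side and 3550.0 kb on the other. Of its peaks 62 were intergenic, 34 intronic, 27 exonic and 16 at promoters. At E13.5 the same stretch held 4 H3K27me3 peaks, each of them met by an E15.5 peak, and 9 more lay in the flanks of equal length, where E15.5 had 0.

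H3K27ac occupied the same block at both stages. At E15.5 3 H3K27ac peaks of 65143, 63794 and 14209 bp covered 99.8% of it, and all 139 H3K27me3 peaks lay on them. They were the only peaks over 10 kb in that list, whose median width was 283 bp. At E13.5 60 H3K27ac peaks covered 90.8%, and the flanks of equal length 2.43%. The outer edges of the H3K27ac peaks were within 421 bp and 287 bp of the edges of the H3K27me3 block at E15.5, and within 286 bp and 221 bp at E13.5. In E11.5 Ebf2-EGFP+ cells the block held 0 peaks of either mark, and in E11.5 Ebf2-EGFP- cells 36 H3K27me3 peaks covering 7.46%. Whether both marks share a source at the block, such as a change in copy number or a DNA construct, was not tested, and the input libraries were not analysed here. The kept and gained Hox genes named above rest on these peaks, apart from Hoxb5.

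**Figure D3:**
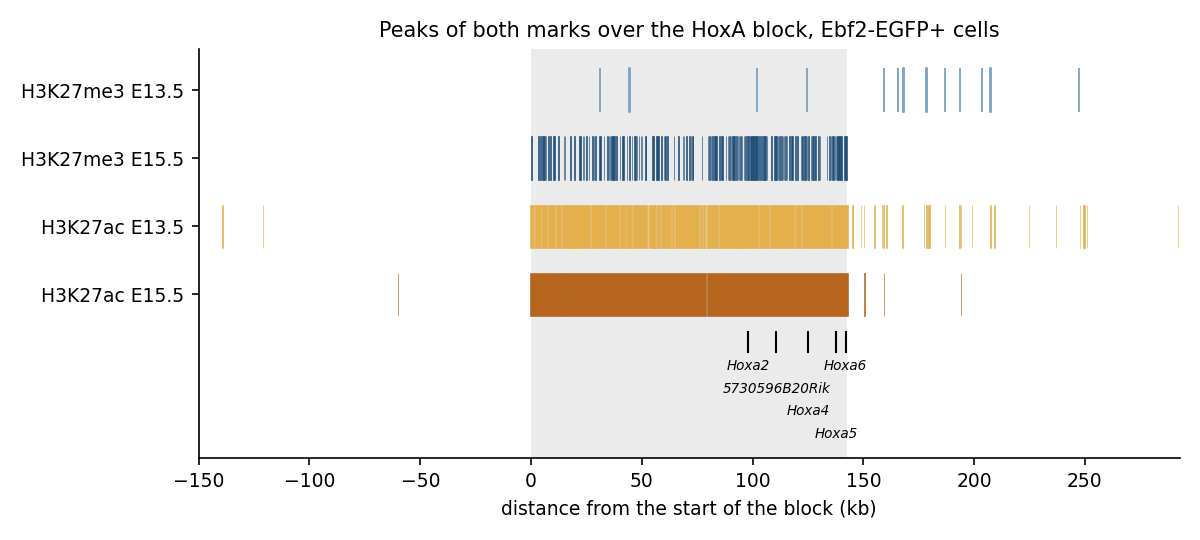
Peaks of H3K27me3 and H3K27ac in Ebf2-EGFP+ cells at E13.5 and E15.5 (rows) around the HoxA block, against distance in kb from its start, with the block shaded and ticks at the labelled TSS in it. The 139 H3K27me3 peaks of E15.5 and the H3K27ac peaks of both stages lie across the shaded 142.8 kb, and outside it only scattered narrow H3K27ac peaks and 9 H3K27me3 peaks of E13.5 are seen.

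A few genes had E15.5 peaks that followed their exons. Whether DNA of a construct without introns gave such peaks was not tested, and the inputs were not analysed here. Peaks lying wholly in exons of protein-coding genes made up 18.2% of the E13.5 list and 8.75% of the E15.5 list. Genes with at least 3 such peaks numbered 13 at E13.5 and 6 at E15.5, and of the 6, 3 lay in or at the HoxA block, Hoxa3 and 5730596B20Rik among them. The other 3 were Nrp1, Vcam1 and Zeb1. Nrp1, a receptor for semaphorins and VEGF, had 9 peaks in its 145 kb, all 9 wholly exonic, although exons made up 6.76% of the gene. They touched 9 of 17 coding exons and covered 56.3% of the coding bases. Vcam1, a cell adhesion gene, had 9 peaks on 9 of 10 coding exons, covering 63.6% of its coding bases, and 8 of them were wholly exonic. Zeb1, a zinc finger repressor, had 4 peaks, all exonic, over 75.3% of its coding bases. None of the 3 genes had an H3K27me3 peak at E13.5. H3K27ac peaks of E15.5 covered 39.4% of the coding bases of Nrp1 and 0 of Vcam1.

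Peaks of E11.5 were set beside these. Vcam1 had 9 exonic peaks in E11.5 Ebf2-EGFP+ cells, over 74.8% of its coding bases. Nrp1 had 0 H3K27me3 peaks in those cells. At the exons of the E13.5 genes the cover was lower, with 46.2% of coding bases at Irx3 and 26.4% at Onecut3, 4 wholly exonic peaks each.

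**Figure D4:**
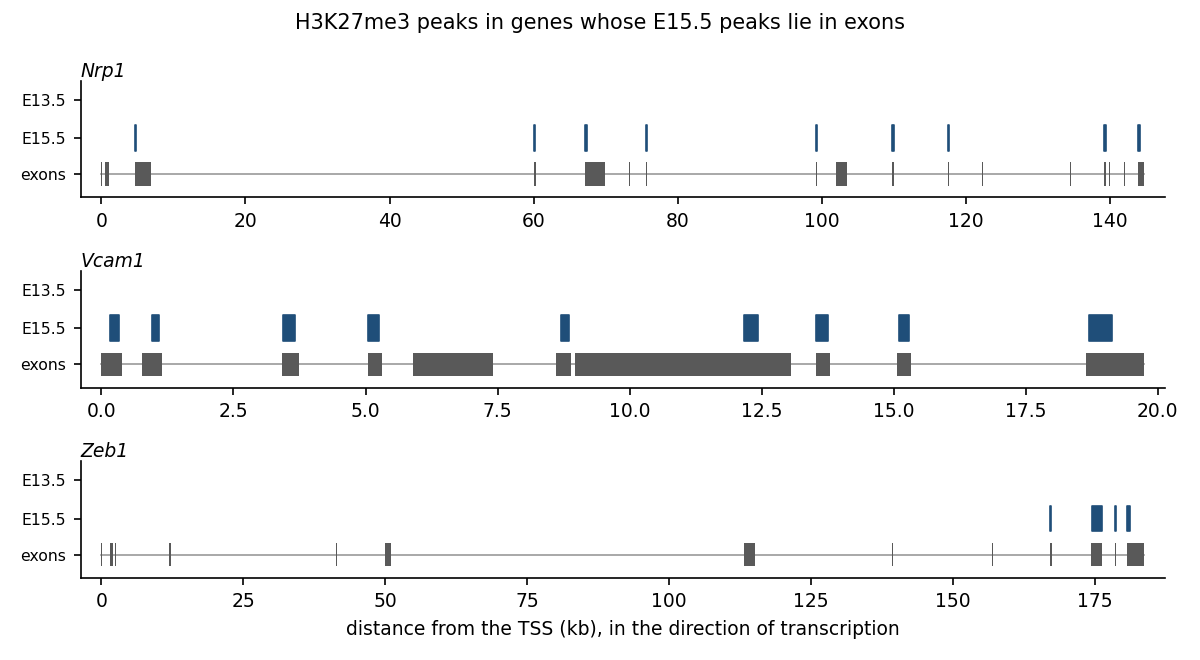
H3K27me3 peaks at E13.5 (no peak in any of the 3 genes) and E15.5, above the merged exons, of Nrp1, Vcam1 and Zeb1, against distance from the TSS in kb. The 9 Nrp1, 9 Vcam1 and 4 Zeb1 peaks sit over exons.

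Other gained TSS had narrow peaks. Hspa1a and Hspa1l, neighbouring heat shock protein genes, shared a 355 bp peak at the Hspa1a promoter, in sequence found 2 times in the assembly. Ankrd65, Npl, Pan3, Prdm10 and Rpp25l had 1 peak each of 240 to 278 bp. Nkx2-6 and Tie1, the latter an endothelial receptor, had 123 bp and 189 bp. Of these only Hspa1a and Hspa1l had a peak over 300 bp.

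Some genes that define the sorted cells had H3K27me3 peaks. Of 9 Cajal-Retzius markers, Ebf2 (184 bp), Ebf3 (205 bp) and Trp73 were marked at E13.5, or 33.3% against 9.31% of all TSS. At E15.5 it was Trp73 alone, or 11.1% against 1.06%. Reln, which encodes Reelin, and Calb2, Lhx1, Lhx5, Tbr1 and Cdkn1a had no peak at either stage. Of 8 layer 1 genes specific to these cells, Ppp2r2c (156 bp) and Slit1 were marked at E13.5 and lost, and 6, among them Nhlh2, were unmarked. H3K27ac was present at all 9 markers at E13.5, against 60.9% of all TSS, and at 6 of 9 at E15.5, against 52.3%. Ebf2, Calb2 and Cdkn1a had no H3K27ac peak at E15.5. The transgene of the strain holds regulatory sequence of Ebf2, and whether it added reads at the Ebf2 peaks was not tested. The widest H3K27ac peak at Reln was 126 bp at E13.5 and 1625 bp at E15.5. At Trp73 H3K27ac peaks lay within the same 5 kb as the E15.5 H3K27me3 peak, 2 of up to 344 bp.

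Markers of other cells were set beside these. At E15.5 H3K27ac lay at 9 of 10 neuronal genes, against 52.3% of all TSS, and at 4 of 10 progenitor, 6 of 11 subplate and deep-layer, 4 of 12 GABAergic, 3 of 10 meningeal, 2 of 10 endothelial and mural and 2 of 10 microglial and blood genes. At E13.5 the numbers were 6, 8, 8, 10, 6, 8 and 6 in the same order, against 60.9%. H3K27me3 at E13.5 lay at 2 neuronal (Elavl3, Rbfox3), 1 progenitor (Pax6), 1 subplate (Cplx3), 3 GABAergic (Dlx6, Nkx2-1, Slc32a1), 2 meningeal (Foxc1, Foxd1), 0 endothelial and 0 microglial genes. At E15.5 it lay at Tie1 alone among these 7 lists. At E15.5 the subplate list, at 54.5%, was near the 52.3% of all TSS, the neuronal list stood above it and the other 5 below. At E13.5 the neuronal, meningeal and microglial lists, each at 60%, were near the 60.9% of all TSS and the others above it. In a sorted pool, fewer cells with a mark and less of the mark per cell cannot be told apart. Nor can either be told from a shorter peak list, as the later H3K27ac list held 25793 peaks and the earlier one 102881. The same limit holds for H3K27ac at the Cajal-Retzius markers.

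The study's own RNA classes, which were chosen on RNA of the same cell groups and are no independent evidence, had 1 marked gene each at E15.5. Over all TSS the marked shares were 9.31% at E13.5 and 1.06% at E15.5. Of 160 matched genes higher in Ebf2-EGFP+ cells at all stages, 20 were marked at E13.5 (12.5%) and 1 at E15.5 (0.625%). Of 152 genes higher in Ebf2-EGFP+ cells at E11.5 and lower at E15.5, 24 were marked at E13.5 (15.8%) and 1 at E15.5 (0.658%).

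H3K27ac lay at most TSS of every H3K27me3 class. At E15.5 it was within 5 kb of 80.0% of kept [67.6 to 88.4], 65.8% of lost [63.7 to 67.8] and 68.4% of gained TSS [61.2 to 74.8], against 50.7% of unmarked TSS. At E13.5 the shares were 96.4%, 89.9%, 78.0% and 57.8%. Of the 1988 lost TSS 1220 had H3K27ac at both stages, 567 at E13.5 only, 88 at E15.5 only and 113 at neither. H3K27ac at E13.5 only was thus found at 28.5% of lost and 18.8% of unmarked TSS, and H3K27ac at E15.5 only at 4.43% and 11.7%. The earlier H3K27ac list was by far the longer, with 102881 peaks against 25793 in the later one. How much of this split came from list length was not tested. Leaving out TSS with a multi-copy peak, H3K27ac at E15.5 was at 73.0% of kept, 66.5% of lost and 69.1% of gained TSS.

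The earlier state of the same TSS differed by class. H3K27me3 peaks of E11.5 Ebf2-EGFP- cells lay at 94.5% of kept [85.1 to 98.1], 74.1% of lost [72.1 to 76.0] and 65.0% of gained TSS [57.7 to 71.6], against 45.3% of unmarked ones and 48.2% of all TSS. In E11.5 Ebf2-EGFP+ cells the shares were 18.2% of kept, 8.90% of lost, 10.7% of gained and 4.43% of unmarked TSS, with 4.92% of all. H3K27ac of the same E11.5 cells lay at 76.4% of kept, 71.2% of lost and 63.8% of gained TSS, against 49.9% of all. The order kept, lost, gained was seen for the progenitor list. Neighbouring TSS can share a peak, as Aida and Brox do, so the counting intervals do not measure the difference between classes.

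**Figure D5:**
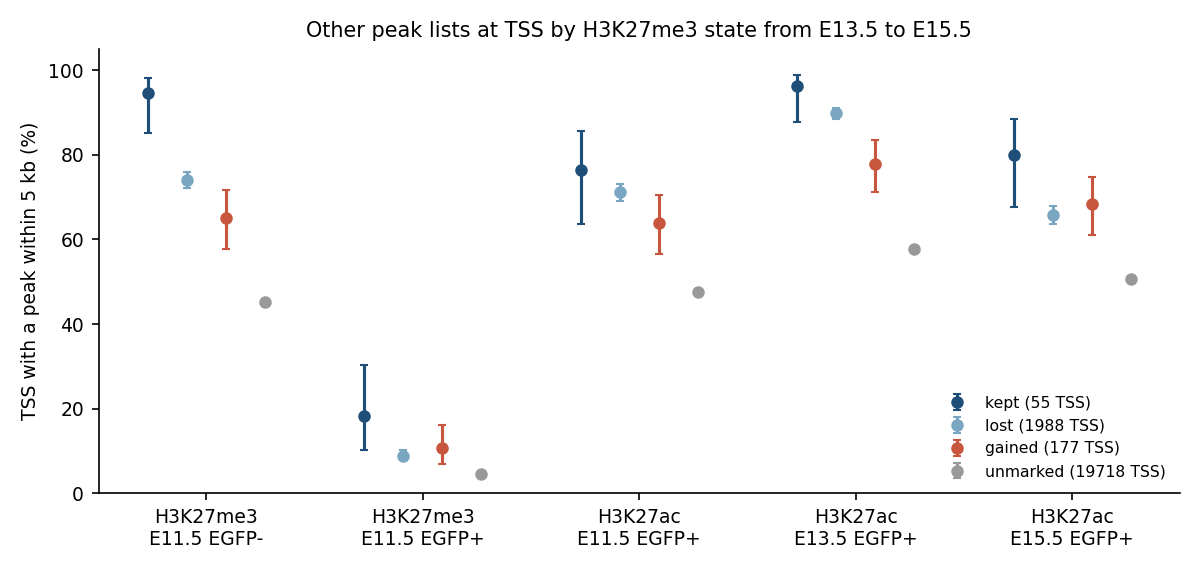
Share of kept, lost, gained and unmarked TSS (colours) with a peak of 5 other lists within 5 kb (y axis, percent); points are shares and bars 95% Wilson intervals. Progenitor H3K27me3 lay at 94.5% of kept, 74.1% of lost and 65.0% of gained TSS.

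Lost and gained TSS more often had CpG-rich promoters than unmarked TSS. In the 1000 bp around the TSS the median CpG ratio was 0.70 for kept, 0.67 for lost, 0.64 for gained and 0.53 for unmarked TSS. A ratio of at least 0.6 with a GC content of at least 55% was met by 38.2% of kept [26.5 to 51.4], 54.4% of lost [52.2 to 56.6], 52.0% of gained [44.7 to 59.2] and 36.7% of unmarked TSS [36.0 to 37.3]. Lost and gained TSS had overlapping intervals, and both lay above the unmarked TSS.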

How the data were processed

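H3K27me3 and H3K27ac were profiled by ChIP-seq in sorted Ebf2-EGFP+ and Ebf2-EGFP- cells. The authors aligned reads to mm10 with Bowtie 1.1.2 on Galaxy, allowing 3 mismatches, and called peaks with MACS (version not given in the sources used here) at a p-value cutoff of 1e-05. Whether replicates were pooled is not stated. The deposited peak lists, 1 per group, give start and end coordinates and a score of 0 for every peak, so the depth is unknown and peaks could not be ranked by height.

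Peaks on the 21 nuclear chromosomes were compared in Python 3.11.15 (numpy 2.4.6, scipy 1.17.1, numba 0.67.0, matplotlib 3.10.9) with a GRCm38 genome and GENCODE M21 genes. TSS are gene 5′ ends. Copies are the median number of occurrences of a peak's 31-base words in the assembly, multi-copy from 2. The scripts were tested on simulated data.

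The members and the gene lists were chosen with earlier results of these data known. Named genes were the 25 kept with the widest overlap, the 20 lost and 15 gained with the widest peaks, all kept or gained list members, and Cajal-Retzius genes. Lost list members given as examples, the HoxA block and the repeat blocks were singled out after their values were seen. Alternatives without multi-copy peaks or the HoxA block were likewise chosen after seeing the data. Some items that the rule selects are not reported here.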

Additional observations from a re-analysis of the deposited data

Results flagged for a closer look

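The E15.5 H3K27me3 list held 9 peaks on the mitochondrial genome among 1438 peaks in all, which lie outside every comparison of the report. The E13.5 H3K27me3 list held 0 among 6721. Among the other lists the number was 6 of 25793 for H3K27ac at E15.5, 4 of 102881 for H3K27ac at E13.5, 1 of 48963 for the H3K27me3 list of Ebf2-EGFP- cells at E11.5, and 0 for the remaining 3.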

How the results depend on the processing

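With 1 peak list per stage and no scores, no replicate could be left out and peak heights could not be compared. No paired analysis was possible because each group has 1 list and the lists carry no replicate numbers. Of 92 alternative values 57 stayed within the counting interval of the reported value and 35 moved outside it. The share of E15.5 peaks shared was 6.65% with a reciprocal overlap of at least 50%, 11.1% within 1 kb, 5.20% with nearby peaks merged, 3.85% against the widest E13.5 peaks, 10.9% for peaks of at least 150 bp, 3.57% without repeat peaks and 2.04% without multi-copy peaks. The share of E13.5 peaks shared was 1.41%, 1.07%, 3.99%, 0.719% and 0.448% with reciprocal overlap, merging, the widest peaks, no repeat peaks and no multi-copy peaks. Kept TSS as a share of E13.5-marked TSS were 1.96% at 1 kb, 3.82% at 10 kb, 3.93% with any transcript start, 4.44% with the widest peaks and 1.94% without multi-copy peaks. As a share of E15.5-marked TSS they were 11.2% with the widest peaks, 17.2% without exonic peaks and 18.4% without multi-copy peaks. H3K27ac at E15.5 lay at 62.5%, 73.6%, 73.8%, 67.9% and 68.3% of lost TSS at 1 kb, at 10 kb, with any transcript start, with the widest peaks and with peaks of at least 150 bp. For kept TSS it lay at 95.7%, 88.5% and 92.0% at 1 kb, with the widest peaks and with peaks of at least 150 bp. Progenitor H3K27me3 lay at 65.7%, 81.8%, 82.3%, 79.8% and 78.9% of lost TSS in the same 5 settings, and at 100% of kept TSS with the widest and with the wider peaks. H3K27ac at E15.5 lay at 46.0% of all TSS at 1 kb, 57.8% at 10 kb and 56.4% with any transcript start. For progenitor H3K27me3 the shares of all TSS were 36.2%, 57.1% and 55.1% in that order. Where the construction of a setting does not show it, the cause was not tested.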
